A study of Arabidopsis thaliana with 12 samples.

Results

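A group of 199 Arabidopsis thaliana genes had at least 2-fold more transcript than wild type in each of 3 mutants of nonsense-mediated decay (NMD). The genes were chosen on the measured levels themselves. Each had a mean of at least 5 RPKM, a read count divided by transcript length and by the size of the library, over the 6 columns of the expression table and a difference from wild type of at least 1 on the log2(RPKM + 0.5) scale in every mutant. They make up 1.41% of the 14079 genes at that mean, called the described genes below, out of 33602 loci in the table. A further 81 loci passed the fold rule in all 3 mutants but had a mean under 5 RPKM, and are not described.

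The seedlings were 11-day-old plants of the Columbia accession, raised on half-strength MS medium with 2% sucrose in continuous light. The mutant groups were lba1, a point mutant of UPF1, upf3-1, a mutant of UPF3, and the double mutant lba1 upf3-1, all untreated, and their control was untreated wild type. In the inhibitor experiment, wild type seedlings spent 4 h in liquid medium with cycloheximide at 10 µg/ml, and the mock seedlings spent 4 h in liquid medium without it. Each group comprised 2 libraries from whole seedlings, which stand in the table as 1 pooled column, so no spread between libraries, SD or p-value can be given. All differences below are log2(RPKM + 0.5) differences between 2 columns, and "higher" or "lower" means at least 2-fold on that scale unless a value is given alone.

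NMD degrades mRNAs on which translation ends in an unfavourable place, such as upstream of an exon junction or before a long 3′ untranslated region (UTR). UPF1 is the RNA helicase at its centre, and UPF3 connects UPF1 and UPF2 to the exon junction complex that splicing leaves on mRNAs. Because the pathway reads mRNAs through the terminating ribosome, cycloheximide, which stops translation elongation, also inhibits it, together with every other process that needs protein synthesis. In plants, transcripts of pseudogenes, long non-coding RNAs and mRNAs with upstream open reading frames are known among its substrates.

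The columns rest on an implied 82.9 to 91.4 M reads. UPF3 itself was at 4.95 RPKM in upf3-1 and 4.82 RPKM in lba1 upf3-1, against 13.1 RPKM in wild type, and UPF1 mRNA does not check a point mutation. The double mutant stood apart from the single mutants in its mesophyll and root markers. The summed level of 6 mesophyll genes was 483 RPKM in lba1 upf3-1, 15117 RPKM in lba1 and 15561 RPKM in upf3-1, against 17806 RPKM in wild type. At 2-fold, all 6 were lower in lba1 upf3-1, while 2 were higher and 0 lower in each single mutant. The single mutant sums join unlike shifts. LHCB1.2 was at 1656 RPKM in lba1 and 1505 RPKM in upf3-1, against 674 RPKM in wild type. RBCS2B was at 2288 and 2880 RPKM, against 4427 RPKM. The summed level of 7 root genes was 1.75 RPKM in lba1 upf3-1, against 35.5 RPKM in wild type. In lba1 and upf3-1 it was 53.6 and 38.5 RPKM. The mesophyll and root sums were 2208 and 1.14 RPKM with cycloheximide, against 7196 and 15.0 RPKM in mock. The summed level of 9 seed storage genes was 367 RPKM in lba1 upf3-1, against 21.4 RPKM in wild type. It was also above wild type in lba1, at 70.7 RPKM, and was 15.3 RPKM in upf3-1. With cycloheximide it was 799 RPKM, against 4.61 RPKM in mock. Of the seed genes, SESA1 alone was at 795 RPKM with cycloheximide, against 2.45 RPKM in mock. The other 8 summed to 4.47 RPKM, against 2.16 RPKM. The 2 pollen and flower markers summed to at most 0.14 RPKM in any column. No mesophyll or root marker was at 0 in any column, while up to 3 of the seed genes were. In whole seedlings, fewer cells of a type and less RNA per cell cannot be told apart, and the part of these shifts in the values below was not tested.

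The 199 genes were weakly expressed in wild type and reached ordinary levels in the mutants. Their median was 12.1 RPKM in lba1, 11.6 RPKM in upf3-1 and 24.4 RPKM in lba1 upf3-1, against 3.67 RPKM in wild type. The described genes as a whole had medians of 13.4, 12.6 and 13.3 RPKM in those mutants, in the same order, against 12.04 RPKM in wild type. The rule fixes the direction of these values, so they describe the choice. Over the described genes, 4.77% were higher in lba1, 3.81% in upf3-1 and 22.1% in lba1 upf3-1.

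The median difference of the 199 genes from wild type was 1.47 in lba1, 1.43 in upf3-1 and 2.34 in lba1 upf3-1. The single mutants lay close to each other, with 179 of the genes within 1.5-fold between lba1 and upf3-1 and 198 within 2-fold. These counts were made for the members only. The rule keeps genes raised in both single mutants, so this closeness is not read as a trait of the group. Neither single mutant was generally the stronger, since 108 genes were above upf3-1 in lba1 by any amount. At the edge of the rule, the smallest of the 3 differences lay between 1.002 and 1.009 for the 5 genes just inside, which were the calcium-dependent kinase gene CPK23, the KH-domain gene AT5G56140, the RING-type ligase gene ARI15, AT3G07460 and AT1G49032. It lay between 0.990 and 0.995 for the 5 just outside, the kinase gene CIPK15, AT1G52347, AT5G65609, AT1G58235 and AT5G55100.

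**Figure D1:**
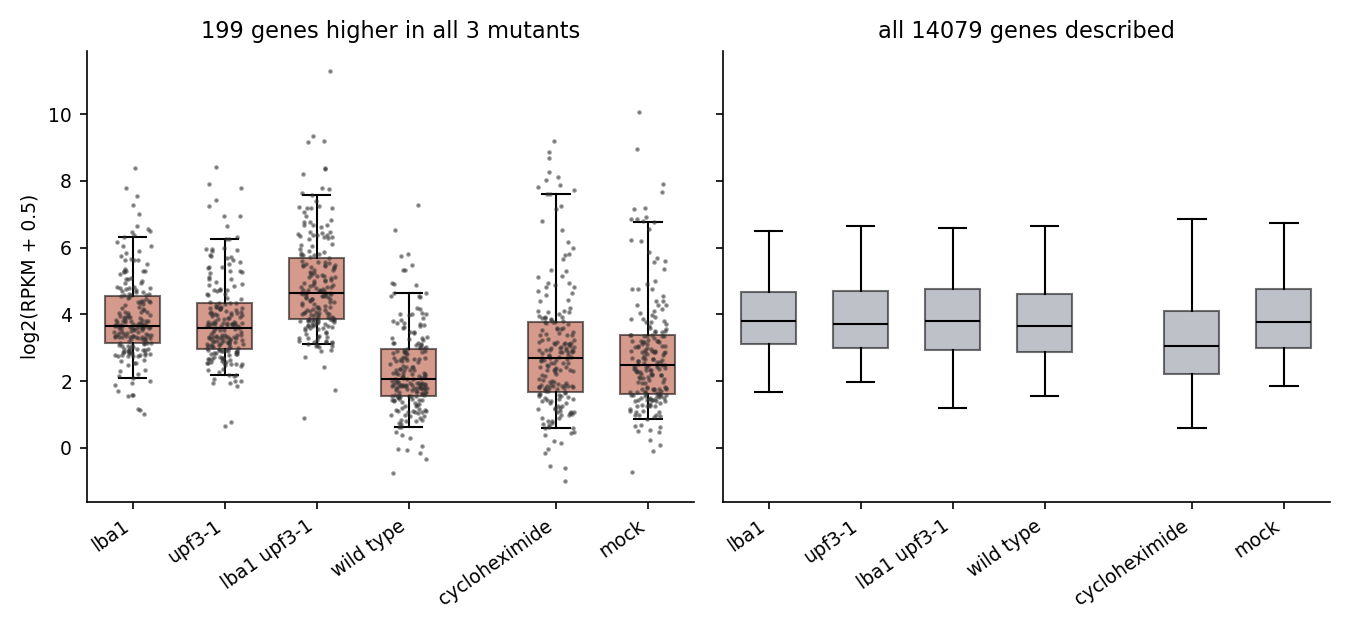
Levels of the 199 genes (left, each point a gene) and of all 14079 described genes (right) in the 6 columns, as log2(RPKM + 0.5). Boxes span the quartiles with the median, and whiskers the 5th to 95th percentile. The 199 genes have medians of 12.1 RPKM in lba1, 11.6 RPKM in upf3-1 and 24.4 RPKM in lba1 upf3-1, against 3.67 RPKM in wild type, and of 5.94 RPKM with cycloheximide, against 5.10 RPKM in mock.

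Some of the genes act in translation termination or splicing. ERF1-1 encodes the release factor that recognises stop codons and ends translation. It was at 88.3 RPKM in lba1, 52.6 RPKM in upf3-1 and 145 RPKM in lba1 upf3-1, against 22.99 RPKM in wild type. With cycloheximide it was at 20.8 RPKM, against 73.9 RPKM in mock, so that the mock incubation alone lay 1.66 above untreated wild type. ERF1-1 has an annotated transcript with an exon junction beyond the stop codon, an arrangement that can mark an mRNA for NMD. In that transcript 1 junction follows the stop codon, 130 bases after it. The coding end is shown because the position of this stop codon relative to the junction defines the feature. The bases are from RefSeq on TAIR10.1, with the stop codon in capitals, at chr5:19386549-19386578 (minus strand, coding end and first UTR bases).
ERF1-1: gctcttgatgatgattcggaaTGAcaatca

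RS40, an arginine/serine-rich splicing factor, was the 1 member among 27 described splicing regulators. It was at 56.1 RPKM in lba1, 28.8 RPKM in upf3-1 and 83.3 RPKM in lba1 upf3-1, against 13.5 RPKM in wild type, and at 8.95 RPKM with cycloheximide, against 18.99 RPKM in mock. Among the splicing regulators, 3 were higher in lba1, 1 in upf3-1 and 14 in lba1 upf3-1, and 1 was higher and 16 were lower with cycloheximide. Over described genes the shares were 4.77%, 3.81% and 22.1% in those mutants, and 13.3% higher and 44.1% lower with cycloheximide. RS40 was thus higher in both single mutants, where most of its list was not.

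Genes with a conserved upstream open reading frame (uORF), a short frame ahead of the main one whose peptide is kept across species, gave 2 of 6 described list members. Over all described genes the share of members was 1.41%. The list holds 20 genes, so most of it was under the 5 RPKM mean. Its genes BZIP1, BZIP2, BZIP11, BZIP44 and BZIP53 were at 0 in every column. SIP3, the protein kinase gene also called CIPK6, had the highest wild type level of the 199 genes. It was at 330.0 RPKM in lba1, 338 RPKM in upf3-1 and 588 RPKM in lba1 upf3-1, against 155 RPKM in wild type, and at 27.5 RPKM with cycloheximide, against 201 RPKM in mock. The protein kinase gene AT5G45430 was at 6.38, 5.55 and 8.42 RPKM in the 3 mutants, against 1.49 RPKM in wild type, and at 8.51 RPKM with cycloheximide, against 1.65 RPKM in mock. The inhibitor columns of these 2 genes thus lay on opposite sides of mock, at −2.84 for SIP3 and 2.07 for AT5G45430. AT5G45428, a locus code not found in the annotation used here, was at 6.27, 5.43 and 8.04 RPKM in the mutants, against 1.45 RPKM in wild type, nearly the values of AT5G45430, and the pair is counted here as 2 members. CPUORF47, which was not on the list but is annotated as an upstream-frame peptide gene, was at 81.9, 75.1 and 82.0 RPKM in lba1, upf3-1 and lba1 upf3-1, against 15.7 RPKM in wild type. It was at 5.51 RPKM with cycloheximide, against 13.1 RPKM in mock.

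Loci that do not code for protein were frequent among the 199 genes. Non-coding RNAs and pseudogenes numbered 40, or 20.1% of the group, against 1.21% of the described genes. Put the other way, 26.9% of the 78 described non-coding RNAs and 20.7% of the 92 described pseudogenes belonged to the group, against 1.14% of the 13804 protein-coding genes. Gene class took no part in the rule, although the level and fold cut-offs act on each class through its levels. The 5 RPKM mean includes the mutant columns, so a locus low in wild type can be described because the mutants raised it. This can raise the shares of classes with low wild type levels. Of the 14 genes past 4-fold in all 3 mutants, 7 were of these classes.

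The non-coding RNA AT3G26612 had the widest margin of the 199 genes, with 2.72 as the smallest of its 3 differences. It was at 24.1 RPKM in lba1, 23.8 RPKM in upf3-1 and 65.1 RPKM in lba1 upf3-1, against 3.19 RPKM in wild type, and at 12.7 RPKM with cycloheximide, against 3.45 RPKM in mock. Its level was thus above the control in both experiments. AT1G11175, also non-coding, was at 38.9, 48.4 and 79.3 RPKM in the mutants, against 6.98 RPKM in wild type, but at 1.34 RPKM with cycloheximide, against 7.73 RPKM in mock. AT1G69252 was an abundant non-coding RNA of the group, at 187 RPKM in lba1, 218 RPKM in upf3-1 and 169 RPKM in lba1 upf3-1, against 44.2 RPKM in wild type. It was one of the loci that the double mutation did not raise above the single mutants, and was at 16.7 RPKM with cycloheximide, against 26.5 RPKM in mock.

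Sadhu loci, non-autonomous retroposons of Arabidopsis annotated as pseudogenes, gave 3 members. SADHU1-1 was at 154 RPKM in lba1, 170.3 RPKM in upf3-1 and 324 RPKM in lba1 upf3-1, against 52.9 RPKM in wild type. With cycloheximide it was at 2.92 RPKM, against 72.5 RPKM in mock, the lowest cycloheximide difference of the 199 genes at −4.42. SADHU1-3 was at 9.80, 9.84 and 11.2 RPKM in the mutants, against 1.65 RPKM in wild type, and SADHU3-2 at 2.72, 3.46 and 27.9 RPKM, against 0.531 RPKM. The Sadhu loci all lay below mock with cycloheximide, and SADHU3-2 was listed at 0 there, against 0.686 RPKM in mock. Among pseudogenes of protein-coding families, RABA4E, of a small GTPase family, was at 13.2, 12.8 and 24.6 RPKM in the mutants, against 2.38 RPKM in wild type. CYP71B18, of the cytochrome P450 family, was at 39.1, 51.6 and 109 RPKM, against 10.6 RPKM in wild type, and it was at 1.37 RPKM with cycloheximide and 2.23 RPKM in mock, both under untreated wild type.

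As classes, the 21 non-coding RNAs had a median cycloheximide difference of −0.48 and the 19 pseudogenes of −0.16, against −0.01 for the 158 coding members. The same classes over all described genes were at −1.52, −0.67 and −0.81. At least 2-fold higher with cycloheximide were 4 of the 21 non-coding RNAs and 2 of the 19 pseudogenes, against 10 of the 78 and 16 of the 92 described. The library kit does not mark strand, so reads from a locus and from an overlapping partner cannot be separated. Of the 40 loci, 11 had an exon base under another locus.

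Transcript features that can make an mRNA an NMD substrate were counted in the 158 coding members and in the 13646 other described coding genes, over all annotated transcripts of a gene. An upstream reading frame of at least 35 codons was annotated for 27.2% of members and 18.5% of the others. An exon junction more than 50 bases after the stop codon was annotated for 13.3% and 9.48%, an upstream AUG for 74.1% and 68.9%, and a 3′ UTR of at least 350 bases for 39.2% and 36.9%. At least 1 of the late junction, the long 3′ UTR and the long upstream frame was annotated for 88 of the 158 members, or 55.7%, against 48.8% of the others. On first annotated transcripts alone, the long upstream frame was found in 17.7% and 11.1%, the late junction in 5.06% and 2.16%, the upstream AUG in 62.7% and 60.9%, and the long 3′ UTR in 25.3% and 27.3%. The long 3′ UTR was thus near the share of other genes, on either side of it. These are shares of genes, which are not replicates, and no test was made.

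Members more often had several annotated transcripts than other genes, and the search covers every transcript of a gene. More than 1 transcript was annotated for 54.4% of members and 47.5% of the others. Among genes with 1 annotated transcript, 9.72% of members and 9.38% of the others had the long upstream frame. Among genes with several, the shares were 41.9% and 28.6%. Members also encoded shorter proteins, with a median longest coding region of 270 codons, against 378 codons in the other genes.

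Besides ERF1-1, the 21 members with a late exon junction include SBI1, a leucine carboxyl methyltransferase gene, RUG1, a gene of the RCC1 repeat family, the kinase gene CPK23 and the immune receptor gene AT5G22690. SBI1 was at 24.1, 25.9 and 59.0 RPKM in lba1, upf3-1 and lba1 upf3-1, against 11.5 RPKM in wild type, and at 20.9 RPKM with cycloheximide, against 13.5 RPKM in mock. RUG1 was at 11.9, 10.6 and 45.7 RPKM, against 4.64 RPKM in wild type, and at 2.06 RPKM with cycloheximide, against 2.69 RPKM in mock. The inhibitor columns of these late-junction genes therefore ran in both directions. The median cycloheximide difference was 0.21 in the 21 members with such a junction and −0.05 in the 137 without, and −0.61 and −0.85 in the other coding genes with and without one. Higher with cycloheximide were 4 of those 21 members and 34 of the 137, against 10.8% and 13.5% of the other coding genes with and without one.

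**Figure D2:**
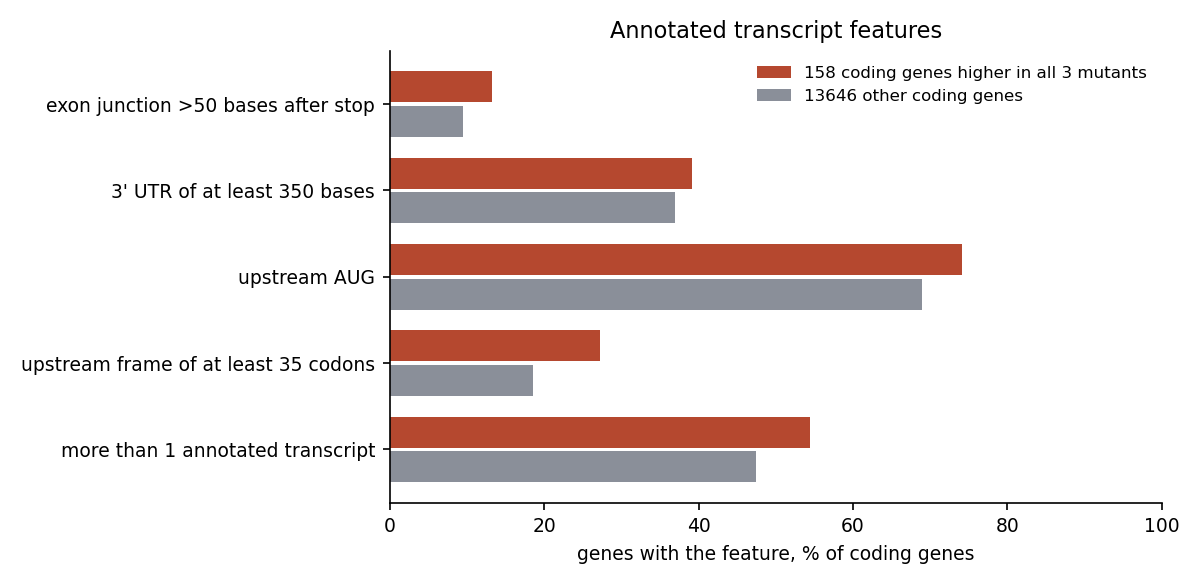
Share of coding genes with each annotated transcript feature, in the 158 coding members (upper bar) and the 13646 other described coding genes (lower bar), over all annotated transcripts of a gene. The shares are 27.2% and 18.5% for the long upstream frame and 13.3% and 9.48% for the late exon junction.

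The double mutant added to the single mutants in most of the genes. In 170 of the 199 the lba1 upf3-1 level lay above both single mutants, against 47.0% of described genes, and in 71 it lay at least 2-fold above the higher one, against 14.1%. In 2 it lay at least 2-fold below, against 23.8%. The median added effect, the double mutant minus the higher single mutant, was 0.77 in the group and −0.07 over described genes. The rule used all 3 mutant columns, so these counts are not independent of it.

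The double mutant was also set beside the sum of the single mutants on the log2 scale. The rule holds each single mutant difference at 1 or more and so fixes a large sum, and nothing is read from the next values. In 48 of the 199 genes the lba1 upf3-1 difference exceeded the sum of the lba1 and upf3-1 differences, against 48.7% of described genes. The median of the double mutant difference minus that sum was −0.59. At least 4-fold above wild type in lba1 upf3-1 were 133 of the genes, against 8.67%.

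The 8 largest added effects lay in genes of several kinds. KTI1, a Kunitz-type trypsin inhibitor gene, was at 2488 RPKM in lba1 upf3-1, 49.8 RPKM in lba1 and 59.7 RPKM in upf3-1, against 22.4 RPKM in wild type, an added effect of 5.37. GLP6, a germin-like protein gene, was at 54.2, 1.74 and 1.22 RPKM in lba1 upf3-1, lba1 and upf3-1, against 0.288 RPKM in wild type. The pathogenesis-related family gene AT1G78780 was at 198, 6.20 and 8.07 RPKM in the same mutants, against 2.42 RPKM in wild type. These genes stood much further above wild type in the double mutant than in either single mutant. The inhibitor columns did not place them together, with KTI1 at 2.64 RPKM with cycloheximide, against 8.62 RPKM in mock, and GLP6 at 5.04 RPKM, against 0.1 RPKM.

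GSTU9, a tau class glutathione transferase gene, was at 215 RPKM in lba1 upf3-1, 11.6 RPKM in lba1 and 13.4 RPKM in upf3-1, against 4.65 RPKM in wild type. It was at 232 RPKM with cycloheximide, against 240.4 RPKM in mock. The non-coding RNA AT3G61198 was at 191 RPKM in lba1 upf3-1, 7.36 RPKM in lba1 and 12.9 RPKM in upf3-1, against 1.80 RPKM in wild type. It stayed low in liquid, at 1.60 RPKM with cycloheximide, against 0.565 RPKM in mock. AT5G24640, AT5G64450, a NYN domain gene, and AT2G38823 completed the largest 8, with added effects of 3.92, 3.54 and 3.40.

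At the other end, 29 genes lay below the higher single mutant in lba1 upf3-1 by any amount, 2 of them by 2-fold or more. AT1G18773, an acyl thioesterase-like gene, was at 6.08 RPKM in lba1 upf3-1, 11.6 RPKM in lba1 and 16.6 RPKM in upf3-1, against 2.41 RPKM in wild type, an added effect of −1.37. The receptor-like protein gene RLP45 was at 8.64, 20.1 and 12.3 RPKM in the same mutants, against 3.16 RPKM in wild type. Both remained above wild type in the double mutant, as the rule requires. AT5G01740 (−0.73), AT3G27990 (−0.55), AT3G45443 (−0.52), the ethylene biosynthesis gene ACS8 (−0.45), AT3G04184 (−0.44) and the ubiquitin protease gene UBP17 (−0.41) completed the smallest 8.

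**Figure D3:**
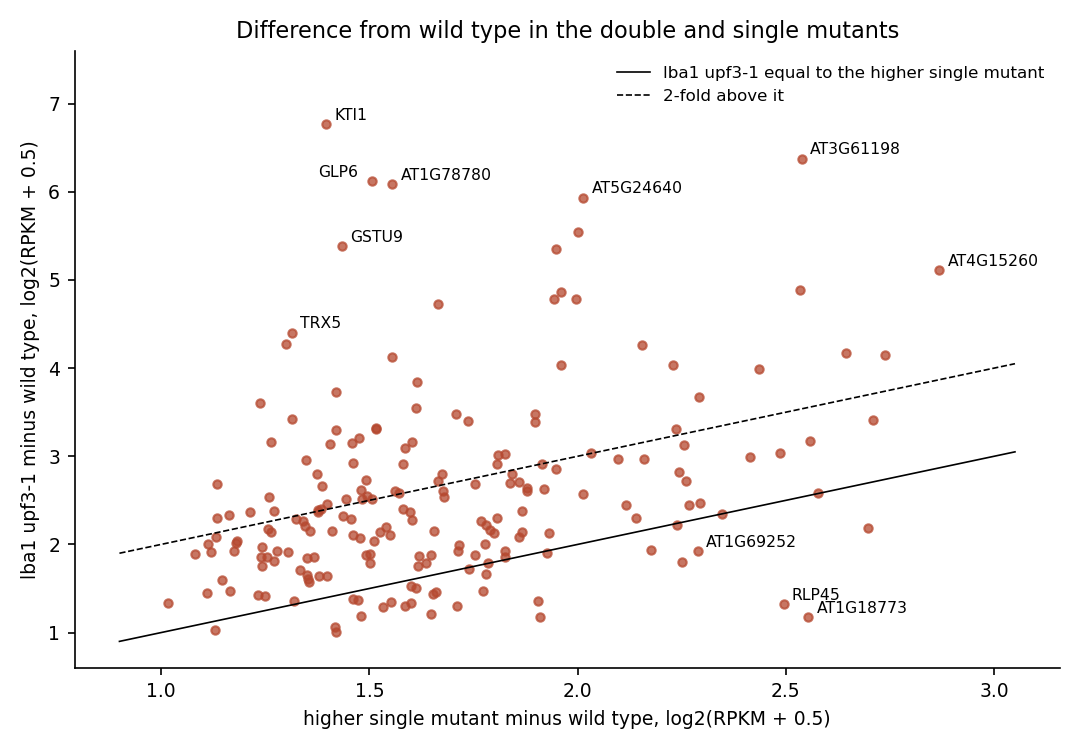
Difference from wild type in lba1 upf3-1 (vertical axis) and in the higher single mutant (horizontal axis) for each of the 199 genes, as log2(RPKM + 0.5). The solid line marks equal differences and the dashed line 2-fold above; 71 genes lie on or above the dashed line, KTI1 highest at 6.76, and 29 lie under the solid line.

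Members were compared with described genes of the same added effect for their mock level. Of the 23 genes with an added effect of at least 2, 12 were higher in mock than in untreated wild type, a share of 52.2%, against 56.3% of all described genes with such an added effect. The share was 16.7% of the 48 genes with an added effect from 1 to under 2, against 32.6%. Higher in mock were 10 of the 99 genes from 0 to under 1, against 14.5%. The share was 17.2% of the 29 genes below 0, against 6.70%. The share of members was near that of described genes at an added effect of at least 2, and a little under it from 0 to under 1. It was lower from 1 to under 2 and higher below 0, on 8 and 5 members. No pattern is read from counts of this size. Mutant and mock differences share the wild type column, so these values stand side by side as a description.

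As deposited, the 199 genes had a median cycloheximide difference of −0.05, against −0.81 over described genes. Higher were 45 of the 199 genes, 22.6%, against 13.3%, and lower were 38, 19.1%, against 44.1%. The rule did not use the difference between these columns, but both entered the 5 RPKM mean. Of the 199 genes, 6 would have missed that mean on the 4 untreated columns alone, and all 6 were higher with cycloheximide.

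The scaling of the columns moves these values. The median difference of the 199 genes was 0.62 after median scaling, against −0.10 over described genes, and 0.42 after quantile normalization, against −0.23. Dividing each column by its own median (median scaling) gave 84 higher and 17 lower among the 199 genes, against 22.0% and 24.2% of described genes. The distance between the medians of the 199 genes and of the described genes was 0.76 as deposited, 0.72 after median scaling and 0.66 after quantile normalization.

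The wild type level of a gene went with its cycloheximide difference, in the group and in general. Among genes at 1 to under 5 RPKM in wild type, which hold 116 of the 199, the median difference was 0.36 in the group and 0.45 over described genes. At 5 to under 20 RPKM (59 genes) it was −0.49 in the group and −0.73 over described genes, and at 20 RPKM or more (15 genes) −1.35 and −1.51. In the 9 genes under 1 RPKM it was 1.42, against 3.72. The group thus lay a little above described genes of its level from 5 RPKM upward. Under 5 RPKM no reading is drawn from the comparison. The described genes of low wild type level passed the 5 RPKM mean through some other column, the cycloheximide column included.

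The group was concentrated at low wild type levels. Under 5 RPKM in wild type were 125 of the 199 genes, or 62.8%, against 14.4% of described genes. The rule favours such levels, since each mutant must lie 2-fold above wild type and the 5 RPKM mean includes the mutant columns. Over wild type, mock and cycloheximide alone, 108 of the 199 genes had a mean of at least 5 RPKM. The rest reached that mean only through the mutant columns. Higher with cycloheximide were 31.0% of the members at 1 to under 5 RPKM, against 37.8% of described genes at that level, and 6.78% of members at 5 to under 20 RPKM, against 9.76%. Lower were 12.1% at 1 to under 5 RPKM, against 15.5%, and 23.7% at 5 to under 20 RPKM, against 39.4%. None of the 15 members at 20 RPKM or more was higher, against 5.22%, and 60.0% were lower, against 66.8%. Since the 5 RPKM mean includes the cycloheximide column, the shares of described genes under 5 RPKM in wild type depend on that column, and no reading is drawn from the comparison at those levels.

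**Figure D4:**
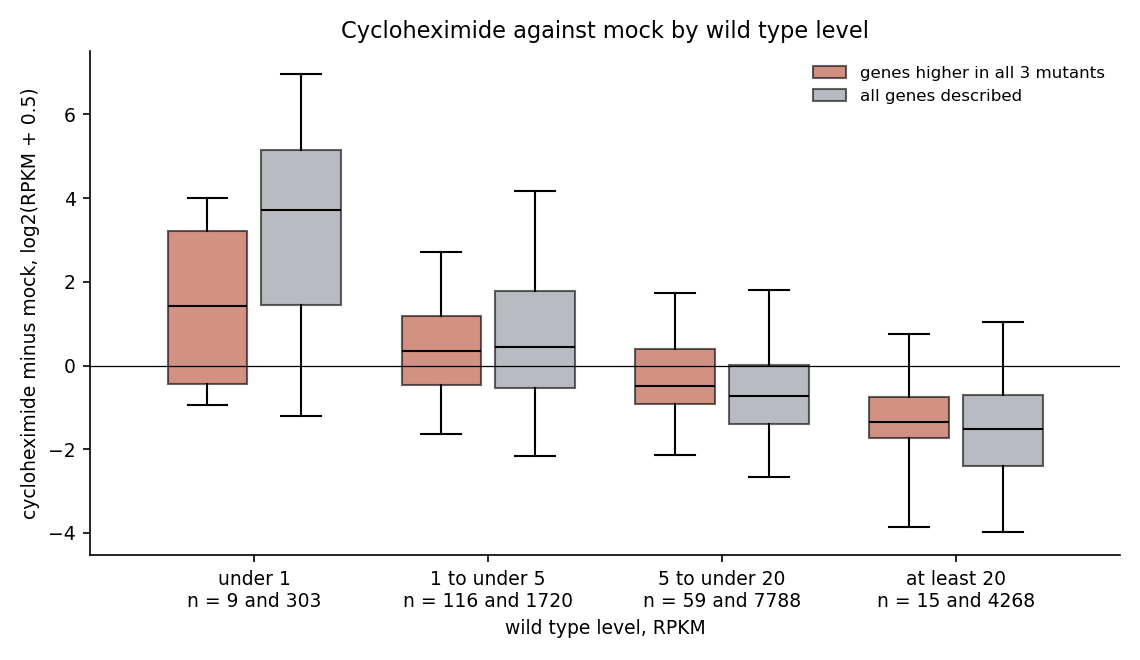
Cycloheximide minus mock, as log2(RPKM + 0.5), by wild type level for the 199 genes (left box of each pair) and for all described genes (right box). Boxes span the quartiles with the median, and whiskers the 5th to 95th percentile; the medians are 0.36 and 0.45 at 1 to under 5 RPKM and −0.49 and −0.73 at 5 to under 20 RPKM.

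The 8 genes highest with cycloheximide were of several kinds. AT1G61460, a lectin receptor kinase-like gene, was at 92.1 RPKM with cycloheximide, against 1.07 RPKM in mock. DAR6, a relative of the growth regulator DA1, was at 110.2 RPKM, against 2.13 RPKM, and MIOX1, which oxidises myo-inositol, at 141 RPKM, against 11.5 RPKM. In lba1, upf3-1 and lba1 upf3-1, AT1G61460 was at 3.72, 3.35 and 13.1 RPKM, against 1.04 RPKM in wild type, and MIOX1 at 11.04, 18.1 and 52.0 RPKM, against 4.49 RPKM. DAR6 was at 3.92, 5.86 and 4.80 RPKM in lba1, upf3-1 and lba1 upf3-1, against 1.60 RPKM in wild type. ACS8, which makes the ethylene precursor, was at 408 RPKM with cycloheximide, against 18.9 RPKM in mock, and at 2.49, 4.06 and 2.84 RPKM in the 3 mutants, against 0.459 RPKM in wild type. The 8 highest were completed by AT5G64450, CW9, AT3G25880 and AT5G22690, with differences of 4.02, 3.44, 3.41 and 3.40.

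CW9 and AT5G22690 belong to the intracellular immune receptors (NLRs), which gave 3 members among 64 described genes annotated as disease resistance proteins. The share of members over all described genes was 1.41%. CW9 was at 15.0, 16.2 and 25.8 RPKM in lba1, upf3-1 and lba1 upf3-1, against 5.58 RPKM in wild type, and at 49.7 RPKM with cycloheximide, against 4.12 RPKM in mock. AT5G22690 was at 8.70, 9.87 and 22.4 RPKM, against 3.22 RPKM in wild type, and at 153 RPKM with cycloheximide, against 13.96 RPKM in mock. The other member, AT1G72840, was at 5.37, 5.18 and 9.75 RPKM, against 2.27 RPKM in wild type, and at 17.7 RPKM with cycloheximide, against 4.04 RPKM in mock. All 3 were thus higher with cycloheximide, as were 41 of the 64 receptor genes, against 13.3% of described genes. Their higher levels in the mutants follow from the rule.

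The genes lowest with cycloheximide included abundant mutant transcripts. After SADHU1-1 came the long non-coding RNA AT4G38932, at 0.593 RPKM with cycloheximide, against 15.3 RPKM in mock, and at 70.7, 78.9 and 61.4 RPKM in lba1, upf3-1 and lba1 upf3-1, against 29.2 RPKM in wild type. SIP3 followed, and then the uncharacterized gene AT2G12461 (−2.56) and the carboxyesterase gene CXE20 (−2.52). The last 3, AT1G31258 (−2.25), AT3G47965 (−2.18) and AT1G11175 (−2.16), include 2 that share sequence. In AT1G31258, 89.1% of 50-base words occur elsewhere in the genome, mostly in AT3G47965, so their separate values are uncertain.

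**Figure D5:**
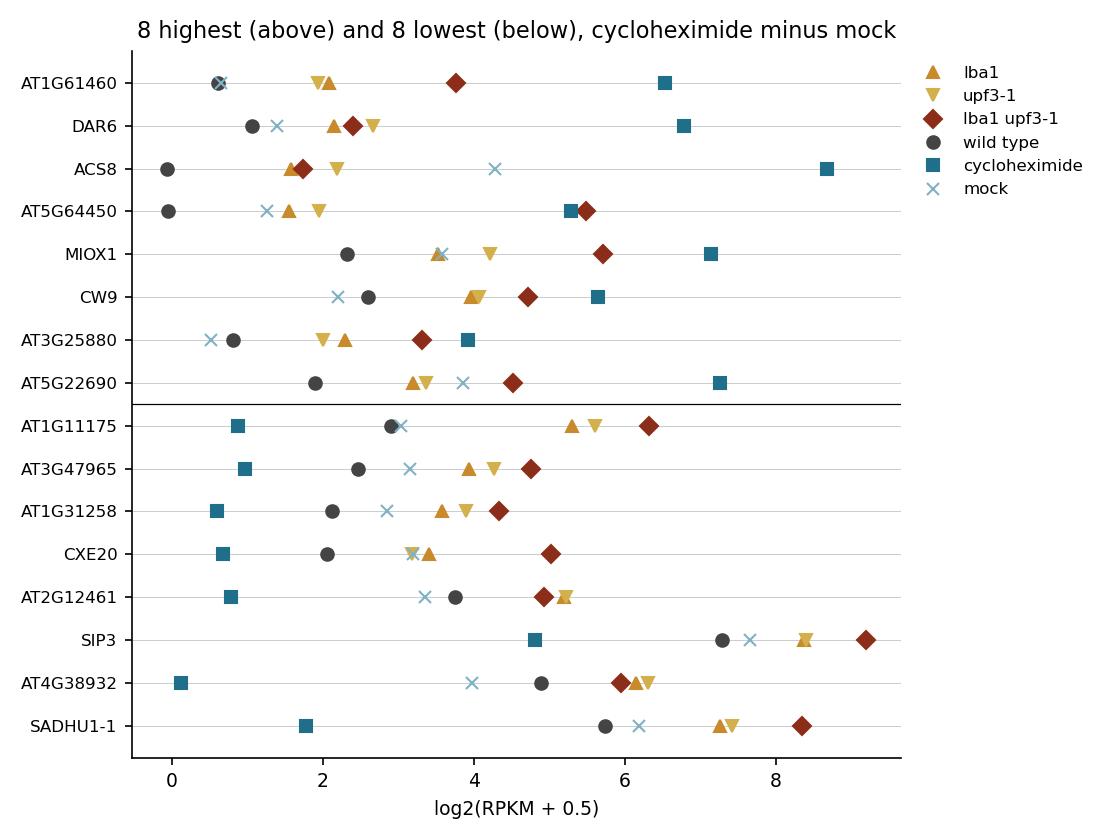
Levels in the 6 columns, as log2(RPKM + 0.5), of the 8 genes with the highest (above the line) and the 8 with the lowest (below the line) cycloheximide minus mock difference among the 199. Cycloheximide squares reach 408 RPKM for ACS8, against 18.9 RPKM in mock, and lie at 2.92 RPKM for SADHU1-1, against 72.5 RPKM in mock, while the mutant symbols lie above wild type in every row.

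Incubation in liquid without the inhibitor altered a minority of the genes. Higher in mock than in untreated wild type were 35 of the 199, against 14.2% of described genes, and lower were 7, against 11.9%. At least 8-fold higher were 11 genes, against 1.83%. Both this comparison and the rule measure from wild type, so a low wild type reading raises all of these differences. Against mock in place of wild type, 102 of the 199 genes were at least 2-fold higher in all 3 mutants, compared with 3.76% of described genes. Above mock by some amount in all 3 mutants were 175, a count made for the members only. The rule chose the genes on the same mutant columns, so neither count is independent of it.

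Of those 11 genes, XTH24, EXL2 and EXLA1 encode cell wall or extracellular proteins. XTH24, which remodels xyloglucan, was at 218 RPKM in lba1, 239.8 RPKM in upf3-1 and 643 RPKM in lba1 upf3-1, against 92.1 RPKM in wild type, and at 585 RPKM with cycloheximide, against 1063 RPKM in mock. EXL2, an EXORDIUM-like gene, was at 99.1, 123 and 577 RPKM in the mutants, against 39.7 RPKM in wild type, and at 277 RPKM with cycloheximide, against 495 RPKM in mock. EXLA1, an expansin-like gene, was at 49.0, 59.2 and 101 RPKM, against 15.8 RPKM in wild type, and at 469 RPKM with cycloheximide, against 141 RPKM in mock. All 3 were thus higher in mock than in any single mutant.

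Genes of the mitochondrial retrograde response, by which a disturbed mitochondrion alters nuclear transcription, gave 4 members from a list of 16. The list was chosen after the data were seen, so nothing is read from this count beside the 1.41% of described genes. Of the 16, 4 were higher and 3 lower in lba1, 6 were higher in upf3-1, and 15 were higher and 1 lower in lba1 upf3-1. With cycloheximide, 3 were higher and 5 lower. Over described genes 4.77% were higher and 1.93% lower in lba1, and 3.81% were higher in upf3-1. In lba1 upf3-1, 22.1% were higher and 21.2% lower, and with cycloheximide 13.3% and 44.1%. The median lba1 difference of the list was −0.14. AT5G24640, an uncharacterized gene, was at 1.67, 3.13 and 54.5 RPKM in lba1, upf3-1 and lba1 upf3-1, against 0.400 RPKM in wild type, and at 307 RPKM with cycloheximide, against 115 RPKM in mock. AT2G21640, annotated as a marker of the oxidative stress response, was at 12.3, 15.4 and 132 RPKM, against 4.51 RPKM in wild type, and at 54.9 RPKM with cycloheximide, against 109.6 RPKM in mock. The acyltransferase-family gene AT2G32020 was at 3.15, 4.66 and 30.3 RPKM, against 1.26 RPKM in wild type, and at 225 RPKM with cycloheximide, against 93.2 RPKM in mock. These 3 genes were lower in the single mutants than in the double mutant and in both liquid columns. The fourth, the Cox19-like gene AT5G09570, moved less, with 14.1 RPKM in lba1 upf3-1, against 2.01 RPKM in wild type, and 4.94 RPKM in mock.

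The mitochondrial dysfunction motif, a promoter element bound by NAC factors that mediate this response, was searched as CTTG followed, after 5 bases of any kind, by CAAG or CACG, on both strands of the 250 bases before each annotated gene start. It was found in 3 of the 158 coding members, or 1.90%, against 0.869% of 13804 described coding genes. All 3 were among the 11 members at least 8-fold higher in mock, and of the 250 coding genes with that mock difference 10.4% held the motif. The promoter stretches of these 3 genes are shown because they share the element and the large mock difference, which for AT2G38823 was 4.08. They are from RefSeq on TAIR10.1, in the direction of the gene and with the motif in capitals, at chr2:9254287-9254377 (AT2G21640), chr2:16223878-16223970 (AT2G38823) and chr5:8436232-8436324 (AT5G24640), all on the plus strand, and the AT2G38823 match lies on the opposite strand. The first base of each match lies 51, 79 and 80 bases before the gene start.
AT2G21640: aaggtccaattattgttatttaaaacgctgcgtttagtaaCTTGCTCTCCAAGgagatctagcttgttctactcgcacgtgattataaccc
AT2G38823: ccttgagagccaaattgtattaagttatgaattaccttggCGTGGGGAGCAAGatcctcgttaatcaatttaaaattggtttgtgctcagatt
AT5G24640: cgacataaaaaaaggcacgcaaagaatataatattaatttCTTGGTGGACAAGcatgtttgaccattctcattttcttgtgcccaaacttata

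Other members have roles in stress and development. JAX1, a jacalin-type lectin gene of virus resistance, was at 10.13, 11.6 and 18.0 RPKM in lba1, upf3-1 and lba1 upf3-1, against 1.55 RPKM in wild type, and at 0.396 RPKM with cycloheximide, against 1.73 RPKM in mock. The transcription factor gene MYB59 was at 65.2, 63.2 and 218 RPKM, against 24.3 RPKM in wild type, and TRX5, a thioredoxin gene, at 38.4, 32.5 and 331 RPKM, against 15.1 RPKM. The neighbouring DUF538 genes AT3G07460 and AT3G07470 were among the 8 highest in wild type. AT3G07460 was at 128, 151 and 113 RPKM in lba1, upf3-1 and lba1 upf3-1, against 56.0 RPKM in wild type, and at 259 RPKM with cycloheximide, against 146 RPKM in mock. AT3G07470 was at 94.5, 123 and 146 RPKM in the mutants, against 39.6 RPKM in wild type, and at 195 RPKM with cycloheximide, against 115 RPKM in mock. HIS1-3, a linker histone gene, was at 52.8, 41.2 and 103 RPKM, against 14.4 RPKM in wild type. MYB59, TRX5, JAX1 and HIS1-3 each had its highest level of the 4 untreated columns in lba1 upf3-1, as did AT3G07470 but not AT3G07460. The chaperone gene Hsp70b, the 1 member among 10 described heat shock genes, was at 9.51, 8.49 and 18.0 RPKM, against 3.20 RPKM in wild type.

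The other listed pathways gave no member. Of 18 described salicylic acid defence genes, 11 were lower in lba1, 2 were higher in upf3-1 and 15 were higher in lba1 upf3-1. Over described genes 1.93% were lower in lba1, and 3.81% were higher in upf3-1 and 22.1% in lba1 upf3-1. Of the 18 genes, 0 were lower in upf3-1 and 0 in lba1 upf3-1, against 0.547% and 21.2% of described genes. Of 14 early auxin genes, 6 were higher in lba1, 3 in upf3-1 and 2 in lba1 upf3-1, where 9 were lower. The described shares were 4.77%, 3.81% and 22.1% higher in the same order, and 21.2% lower in lba1 upf3-1. By the rule, no gene of either list was higher in all 3 mutants. The lists of 11 hypoxia, 9 phosphate starvation, 12 circadian clock, 8 low-sugar and 5 seed storage genes described also held none. Members were 1.41% of described genes, so lists this short can easily hold none, and nothing is read from these counts.

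Some members are not independent of each other. In 12 of them at least 50% of the 50-base words of their exons occur elsewhere in the genome, and in AT1G17990 and AT1G18020, and in AT5G50565 and AT5G50665, all words do. Their values were nearly equal, with AT1G17990 at 27.6 RPKM and AT1G18020 at 32.5 RPKM in lba1. In 58 of the 198 annotated members, or 29.3%, an exon base lies under another locus, against 31.2% of described genes. For the transcription factor gene ZF3, at 211 RPKM with cycloheximide, against 20.6 RPKM in mock, that share of the exon bases was 45.3%. AT3G54530, the lowest member in wild type, rested there on about 10 reads, at 0.0880 RPKM.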

How the data were processed

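The authors deposited RPKM values for 6 pooled columns, each standing for 2 of 12 libraries, and how they were pooled, aligned and counted is not given in the sources used here. TAIR10 is the build that the submitters' processing notes name, and libraries were made with a TruSeq RNA kit, per the labels' protocols. Names, transcripts, overlaps and sequences came from the TAIR10.1 annotation of RefSeq, whose nuclear coordinates were used for it alone. With 1 column per group, no model was fitted, no test was made and counts past 2-fold replace calls. The pseudocount was 0.5. Totals were recovered from low values of 623 transfer RNA loci, which gave 86 to 114 usable values per column. Of these values, 91.9 to 95.7% were whole reads within 0.05. The totals were chosen to bring the same values near whole reads, so this share is no independent check. A gene of 1 kb at 5 RPKM rests on 414 to 457 reads, and the median 95% counting interval of a member's cycloheximide difference was ± 0.14. Intervals cover counting error only. The annotated exon length stood in for the authors' gene length.

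Members and lists were chosen with earlier results of these data known. Genes were named by rule (the 8 extremes of wild type level, added effect and cycloheximide difference, the 5 inside and outside the threshold, list members, and named non-coding loci); others named were chosen after their values were seen. One item that the rule names is not reported here. Tables were made with Python 3.11.15, pandas 2.3.3 and NumPy 2.4.6, and the rule was tested on simulated data.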

Additional observations from a re-analysis of the deposited data

How the results depend on the processing

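No paired analysis was possible because each group is 1 pooled column with no replicate of its own, and for the same reason no library could be left out in turn. With a pseudocount of 0.1 the group held 75 genes higher with cycloheximide, 62 higher and 11 lower in mock, and a median added effect of 0.88. A mean of at least 10 RPKM left 115 genes, 21 of them higher with cycloheximide and 42 under 5 RPKM in wild type, with a median added effect of 0.92. A mean of at least 1 RPKM gave 199 genes under 5 RPKM in wild type, and no filter gave 206 and a median added effect of 0.66. Median scaling, which redraws the group, gave 75 genes higher and 13 lower with cycloheximide, and quantile normalization gave 21 lower. At 1.5-fold the group held 627 genes and at 3-fold 47. With mock in place of wild type, an alternative chosen after seeing the data, it held 499, of which 100 were among the 199. The share with a late exon junction was 5.06% on first annotated transcripts, against 2.16% of other coding genes. The other 51 alternative values stayed within 1.5 times of the counts, within 0.1 of the median added effect or within the 95% binomial interval of the share. Of 50 genes named by rule, none that was past 2-fold with cycloheximide changed sign under another pseudocount or scaling, and 7 within 2-fold did. The 2-fold call was lost by 8 and gained by 8 of the 50 under median scaling, lost by 10 and gained by 7 under quantile normalization, lost by 3 at a pseudocount of 1 and gained by 1 at 0.1. Of the group, 172 genes remained at a pseudocount of 1, 162 under median scaling and 165 under quantile normalization. The cause of these shifts was not tested, apart from the filters and thresholds, which change the genes counted. No spread between libraries limits every value.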
